A study of Mus musculus with 6 samples.

Results

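The genes described here are 28 known targets of the sterol regulatory element-binding proteins (SREBPs), taken by symbol from a table of 23366 mouse genes. They fall into a sterol branch of 18 genes and a fatty acid branch of 10. RNA was sequenced from SC4 cells, a mouse Schwann cell line. It was grown from a schwannoma, a benign tumour of nerves, and has no Nf2; this gene encodes merlin, a tumour suppressor. The groups were cells transfected with pooled YAP siRNA and cells transfected with Control siRNA, each taken 48 hours after transfection, with 3 libraries per group. Both groups lack Nf2, and both come from a single line. YAP, encoded by Yap1, is a transcriptional co-activator that the Hippo pathway restrains. The series title places it upstream of COX2 and EGFR; no label names lipid synthesis as an aim. The labels do not say whether libraries of a group came from separate cultures, so the p-values speak only of the spread among these libraries, possibly technical.

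Cells build cholesterol from acetyl-CoA through mevalonate, farnesyl diphosphate, squalene and lanosterol, and they build fatty acids from the same acetyl-CoA through malonyl-CoA. SREBPs are made as membrane proteins of the endoplasmic reticulum. When sterols are scarce they travel to the Golgi, are cut there by proteases, and their freed ends enter the nucleus and switch on the genes of both routes; SREBP-2 acts mostly on sterol genes and SREBP-1 mostly on fatty acid genes. Schwann cells need large amounts of both products because myelin is a lipid-rich membrane.

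Most promoters of the sterol branch held the letters bound by NF-Y and Sp1, factors known to act beside SREBPs. RefSeq start sites on GRCm38.p6 gave the 250 bases before the start for 21 of the 28 genes, 14 in the sterol and 7 in the fatty acid branch, and for 27025 genes in all; where a gene had several, the first listed was searched. On either strand, the NF-Y box CCAAT was found in 12 of 14 sterol promoters and 3 of 7 fatty acid promoters, beside 34.5% of all promoters. The Sp1 box GGGCGG was found in 13 of 14 and 3 of 7, beside 32.9% of all. An E-box CACGTG stood before Hsd17b7 and Insig1 and before none of the 7 fatty acid genes, beside 6.05% of all. The sterol regulatory element TCACNCCAC was found before Hmgcs1 alone, beside 1.04% of all, and GGAATG, the letters bound by the TEAD partners of YAP, before Acss2 alone, beside 12.6% of all. The shares of all promoters include genes not expressed in these cells, and no share was taken over the tested genes alone. A match is a description of letters, not of binding.

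The following 3 promoters are shown because Hsd17b7 in the sterol branch and Fads2 in the fatty acid branch were lower in all YAP siRNA libraries, while Mvk, which like Hsd17b7 has NF-Y and Sp1 boxes but no E-box, had nearly equal values in both groups. They lie at chr1:169969206-169969455 (minus strand), chr5:114444019-114444268 (plus strand) and chr19:10101504-10101753 (minus strand) of GRCm38.p6, directly before the start site, and are written 5′ to 3′ along the gene. Capitals mark NF-Y boxes (CCAAT, or ATTGG read on the other strand), Sp1 boxes (GGGCGG, or CCGCCC on the other strand) and the E-box (CACGTG).
Hsd17b7: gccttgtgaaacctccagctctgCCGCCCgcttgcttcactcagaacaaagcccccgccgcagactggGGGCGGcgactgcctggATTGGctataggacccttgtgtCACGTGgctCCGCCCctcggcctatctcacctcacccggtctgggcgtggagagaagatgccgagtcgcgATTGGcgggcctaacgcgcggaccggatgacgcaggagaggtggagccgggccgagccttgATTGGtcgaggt
Mvk: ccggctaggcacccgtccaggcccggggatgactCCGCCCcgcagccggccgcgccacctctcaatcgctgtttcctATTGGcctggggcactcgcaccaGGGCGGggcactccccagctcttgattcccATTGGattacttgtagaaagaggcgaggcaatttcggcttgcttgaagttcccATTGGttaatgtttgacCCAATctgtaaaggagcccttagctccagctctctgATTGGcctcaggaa
Fads2: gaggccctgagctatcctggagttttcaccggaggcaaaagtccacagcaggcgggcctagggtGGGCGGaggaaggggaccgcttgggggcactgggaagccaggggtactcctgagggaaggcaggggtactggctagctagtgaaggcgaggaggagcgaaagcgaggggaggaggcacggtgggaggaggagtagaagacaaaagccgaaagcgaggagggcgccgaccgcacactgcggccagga
The Hsd17b7 promoter held 3 NF-Y boxes, 3 Sp1 boxes and 1 E-box, that of Mvk 5 NF-Y boxes and 2 Sp1 boxes, and that of Fads2 1 Sp1 box, with no match overlapping another. Insig1, whose promoter also held NF-Y and Sp1 boxes and an E-box, had values that overlapped between the groups. The part of any box in the values was not tested.

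Values below are normalized counts, which are gene counts that the authors scaled by 1 size factor per library. The libraries held 18025132 to 26984156 reads in genes after YAP siRNA and 18821938 to 60078880 after control siRNA. Yap1 itself had 936, 571 and 475 normalized counts in YAP siRNA replicates 1, 2 and 3, against 4750, 5732 and 4751 in control siRNA replicates 1, 2 and 3. Replicate 1 stood apart from replicates 2 and 3 in both groups, and libraries with the same number departed together from their groups, so each test is given without and with the replicate number as a block. Replicates 2 and 3 also departed together across the groups when their numbers differed, so their pairing is poorly shown. Of 8 Schwann cell markers, 6 reached a mean of 10, with a summed level of 7606 to 15288 after YAP siRNA and 7621 to 10269 after control siRNA, while the defining markers Sox10 and S100b stayed under it. The fibroblast markers summed to 210239 to 398537 after YAP siRNA and 253295 to 520976 after control siRNA, with 6 of 7 reaching a mean of 10 and Col1a1 the highest. Adipocyte markers summed to 20.4 to 35.3 after YAP siRNA and 19.7 to 72.5 after control siRNA, and Lep and Cidec were at 0 in all 6 libraries. Macrophage markers summed to 220.0 to 315.0 after YAP siRNA and 285.3 to 353.1 after control siRNA, and endothelial markers to 185.7 to 271.3 after YAP siRNA and 150.2 to 235.0 after control siRNA. Some single markers did not overlap, as was so for 19% of all genes. Erbb3 of the Schwann cell list had 137.0 to 160.5 after YAP siRNA and 49.3 to 92.6 after control siRNA. The fibroblast marker Pdgfrb had 16542 to 22277 after YAP siRNA and 8601 to 12079 after control siRNA. Csf1r of the macrophage list had 62.6 to 84.4 after YAP siRNA and 119.9 to 196.3 after control siRNA. The other listed markers reaching a mean of 10 overlapped. The part of these markers in the results was not tested, and in such bulk samples fewer cells of a type and less RNA per cell cannot be told apart.

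Most of the sterol and fatty acid genes differed little after YAP siRNA. Hsd17b7, a reductase late in cholesterol synthesis, was 56.7% of its control mean, Scd2, a stearoyl-CoA desaturase, was 132%, and Fads2, a desaturase of polyunsaturated fatty acids, was 81.7%. These 3 of 27 tested genes passed in limma with the replicate block, and none did without it. The other 24 tested genes had log2 fold changes between −0.23 and 0.32.

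Tests were run on log2(value + 1) with limma over all 12820 genes whose mean reached 10, and all fold changes are on this log2(value + 1) scale, YAP siRNA minus control siRNA. Without the block, limma at an adjusted p under 0.05 called 0 of 17 tested sterol genes and 0 of 10 fatty acid genes. It called 0% of all genes in either direction, and edgeR also called 0. Yap1 itself, at 13.0% of its control mean, was thus not called either. A gene without a call in these fits is therefore not shown to be unchanged. At an unadjusted p under 0.05, unblocked limma gave 2 of the 27, Hsd17b7 and Fads2, against 12.2% of all genes. Unblocked DESeq2 called Hsd17b7 alone, lower, as it did 3.1% of all. With the block, limma called 0 sterol genes higher and 1 lower, and 1 fatty acid gene higher and 1 lower, where 8.32% of all genes were called higher and 8.96% lower. With the block, edgeR on recovered reads called the same 3 genes, where it called 9.28% of all genes higher and 10.1% lower, as did DESeq2, where it called 9.22% higher and 10.2% lower. Blocked limma without a mean-variance trend called 0 of the 27, against 0.234% of all genes. The 3 calls were 11.1% of the 27 genes, against 17.3% of all genes, so the share of these genes that passed was not above the background. The words rose and fell are kept here for genes that passed with the block.

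The 2 branches leaned apart by little. In the sterol branch 12 genes had a positive and 5 a negative log2 fold change, with a median of 0.08 and a range of −0.83 to 0.32. In the fatty acid branch 4 were positive and 6 negative, with a median of −0.06 and a range of −0.29 to 0.39. Over all genes tested the median was 0.01. The median size of the log2 fold change, whatever its sign, was 0.12 in the sterol branch and 0.19 in the fatty acid branch, against 0.24 over all genes. The sign of a small difference was not firm: Fdps and Fdft1 were positive here and slightly negative in unblocked edgeR and DESeq2 on recovered reads, and 16 of the 27 changed sign in some setting, mostly when 1 library was left out.

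The branches differed between replicates in which way they leaned. In the pair of replicate 1 the median sterol log2 difference was −0.09, with 4 of 17 genes higher after YAP siRNA, and in the pairs of replicates 2 and 3 it was 0.17 and 0.20, with 14 and 13 higher. The fatty acid medians were 0.03, −0.13 and −0.15, with 6, 4 and 4 of 10 higher. Of all genes, 6417, 6612 and 6229 of 12820 were higher in the 3 pairs. The sterol genes were mostly lower in the pair of replicate 1 and mostly higher in the pairs of replicates 2 and 3. Yap1 was at 19.7%, 9.97% and 9.99% of its control value in the pairs of replicates 1, 2 and 3. The part of this in the lean of the branches was not tested. In all 3 pairs, 2 sterol genes (Acat2 and Mvk) were higher and 1 lower, and 3 fatty acid genes (Scd2, Acaca and Fads1) were higher and 3 (Srebf1, Elovl6 and Fads2) lower, where 27.4% of all genes were higher and 27.1% lower.

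**Figure D1:**
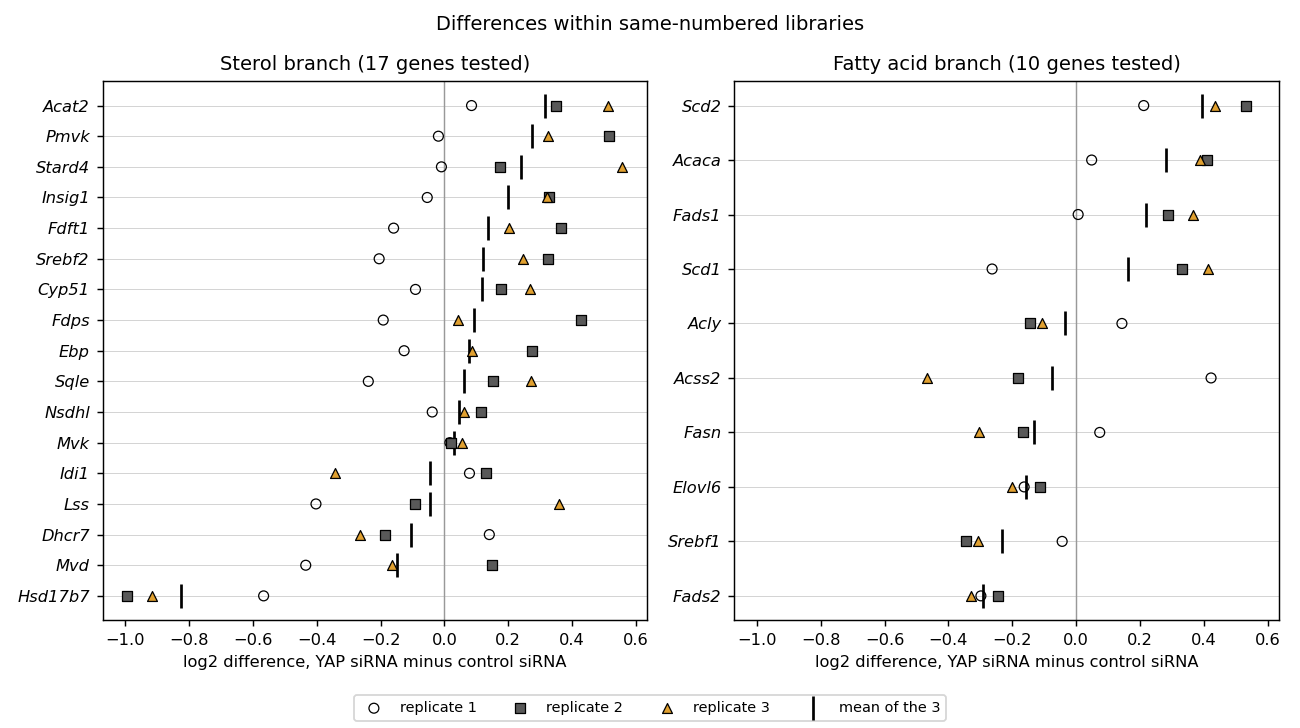
Log2 difference of YAP siRNA minus control siRNA within each same-numbered pair of libraries (points) and their mean (bars), for the 17 tested sterol genes and the 10 fatty acid genes. Hsd17b7 lies below 0 in all 3 pairs, between −0.57 and −0.99, while in most other sterol genes the circle of replicate 1 lies left of the squares and triangles of replicates 2 and 3.

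Among the regulators, the transcript of neither SREBP gene passed. Srebf2, which encodes SREBP-2, had 14310, 22377 and 22967 normalized counts in YAP siRNA replicates 1, 2 and 3, against 16490, 17882 and 19378 in control siRNA replicates 1, 2 and 3. The groups overlapped, since replicate 1 was lower and replicates 2 and 3 were higher than all control values (log2 fold change 0.12, 95% interval with the block −0.14 to 0.38, limma adjusted p = 0.482). Srebf1, which encodes SREBP-1, had 6045, 8185 and 8744 in YAP siRNA replicates 1, 2 and 3, against 6232, 10389 and 10822 in control siRNA replicates 1, 2 and 3. It was lower in all 3 pairs, by 0.04, 0.34 and 0.31 on the log2 scale, but the groups overlapped and limma gave an adjusted p of 0.115 with the block. Insig1, an endoplasmic reticulum protein that holds SREBPs back and is itself an SREBP target, had 4209, 1848 and 2277 in YAP siRNA libraries and 4369, 1471 and 1824 in control siRNA libraries (log2 fold change 0.20, adjusted p = 0.233 with the block in limma). Its replicate 1 was above the others in both groups, by more than the siRNA groups differed.

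The early enzymes, from acetyl-CoA to farnesyl diphosphate, gave no call. Acat2, the thiolase that joins acetyl-CoA units, had the largest positive log2 fold change of the sterol branch, 0.32 (95% interval with the block 0.04 to 0.59, limma adjusted p = 0.107). It had 1843, 858.8 and 1031 normalized counts in YAP siRNA replicates 1, 2 and 3, against 1737, 674.3 and 721.6 in control siRNA replicates 1, 2 and 3, higher in each pair. Hmgcs1, the HMG-CoA synthase of the next step, was listed at 0 in all 6 libraries and was not tested. Pmvk, phosphomevalonate kinase, was at 0.27, and Mvk, the mevalonate kinase whose promoter is shown above, at 0.03, with 1162, 1232 and 1287 normalized counts in YAP siRNA libraries and 1149, 1214 and 1239 in control siRNA libraries. Mvd, mevalonate diphosphate decarboxylase, was at −0.15, Idi1, the isopentenyl diphosphate isomerase, at −0.04, and Fdps, farnesyl diphosphate synthase, at 0.09, all 3 with overlapping groups.

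From squalene to cholesterol, Hsd17b7 was the single call among the listed genes. This enzyme reduces the keto group left when methyl groups are removed from the sterol ring. It had 2392, 1852 and 2021 normalized counts in YAP siRNA replicates 1, 2 and 3, against 3543, 3689 and 3817 in control siRNA replicates 1, 2 and 3. Every YAP siRNA library was below every control library, as was so for 9.49% of all genes. Hsd17b7 fell by 0.83 on the log2 scale (SE 0.109, 95% interval −1.07 to −0.58), with adjusted p = 0.0032 in blocked and 0.158 in unblocked limma. An exact two-sided permutation test gave 0.1, the smallest p that 3 against 3 libraries allow. Groups that do not overlap always give this value, as for Scd2, Fads1 and Fads2, so it adds nothing to the lack of overlap. Hsd17b7 passed in 8 of 9 fits with the block, with adjusted p between 1.28e-21 and 0.0813, the highest being limma without a mean-variance trend. The lowest came from limma without replicate 1 of both groups, which leaves 1 residual degree of freedom per gene. Without the block Hsd17b7 passed in DESeq2 (adjusted p = 5.8e-05) and in limma when control replicate 1 was left out (0.0457).

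The other listed genes of these steps gave no call. Fdft1, squalene synthase, was at a log2 fold change of 0.14, Sqle, squalene epoxidase and a rate-limiting enzyme of the later pathway, at 0.06, and Lss, lanosterol synthase, at −0.05. Cyp51, which removes a methyl group from lanosterol, was at 0.12, and Nsdhl, which acts in the same demethylation complex as Hsd17b7, at 0.05. Ebp, a sterol isomerase, was at 0.08, and Dhcr7, which carries out a last step to cholesterol, at −0.10. Stard4, a carrier of cholesterol between membranes, was at 0.24. With the block, limma adjusted p of these 8 lay between 0.204 and 0.845, and all had overlapping groups.

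**Figure D2:**
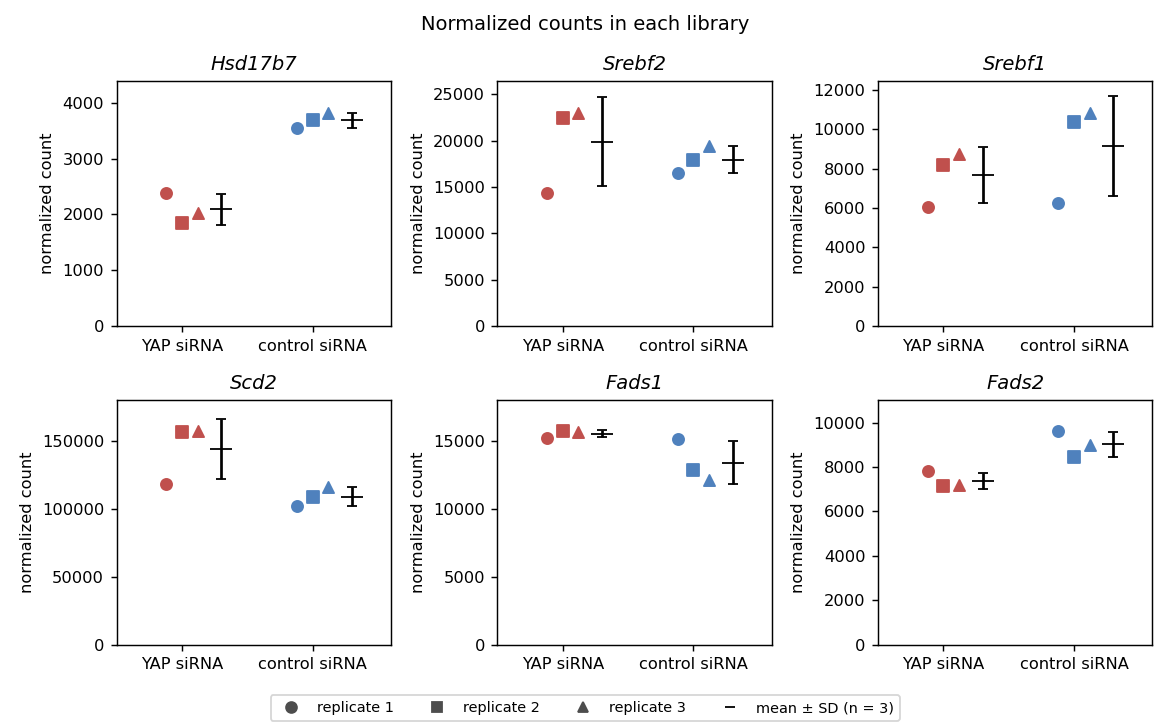
Normalized count in each library (points, shape by replicate number) with the mean and SD of 3 libraries, YAP siRNA in red and control siRNA in blue, for Hsd17b7, both SREBP genes and the 3 desaturases whose groups did not overlap. Hsd17b7 and Fads2 lie lower and Scd2 and Fads1 higher in all YAP siRNA libraries, while Srebf2 and Srebf1 overlap.

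In the fatty acid branch, the enzymes that build the carbon chain gave no call. Acly, which makes cytosolic acetyl-CoA from citrate, was at a log2 fold change of −0.04, Acss2, which makes it from acetate, at −0.08, and Acaca, the acetyl-CoA carboxylase that makes malonyl-CoA, at 0.28. Fasn, the fatty acid synthase, had 29559, 27628 and 26878 normalized counts in YAP siRNA replicates 1, 2 and 3, against 28083, 31034 and 33157 in control siRNA replicates 1, 2 and 3, a log2 fold change of −0.13. The YAP siRNA value was above the control value in replicate 1 and below it in replicates 2 and 3. Elovl6, the elongase of palmitate, was at −0.16. With the block, limma adjusted p of these 5 lay between 0.139 and 0.81.

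The desaturases, which place unsaturated bonds in the chain, held both calls of this branch. Scd2, a stearoyl-CoA desaturase expressed widely outside the liver, had 118501, 156742 and 156970 normalized counts in YAP siRNA replicates 1, 2 and 3, against 102332, 108391 and 116111 in control siRNA replicates 1, 2 and 3. The groups did not overlap, as was so with YAP siRNA higher for 9.47% of all genes. Scd2 rose by 0.39 on the log2 scale (SE 0.099, 95% interval 0.17 to 0.62), with adjusted p = 0.0300 in blocked and 0.423 in unblocked limma, and was higher in 3 of 3 pairs. With the block it did not pass without replicate 2 (adjusted p = 0.311), without replicate 3 (0.147) or in limma without a trend (0.140). Over 9 such fits adjusted p ran from 1.4e-08, without replicate 1 of both groups, to 0.311. Scd1, its paralogue, had 24632, 24930 and 24742 in YAP siRNA replicates 1, 2 and 3, against 29566, 19801 and 18571 in control siRNA replicates 1, 2 and 3 (log2 fold change 0.16, limma adjusted p = 0.420 with the block). Control replicate 1 of Scd1 lay above all YAP siRNA libraries and the other two control libraries below them. Of their 31-base words, 6.29% for Scd2 and 8.18% for Scd1 also occur in other coding genes, most of them in the paralogue Scd3; the part of this in their values was not tested.

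Fads2 and Fads1, which desaturate polyunsaturated fatty acids at different positions, are neighbouring genes on chromosome 19 and were the only adjacent pair of the 28. Fads2 had 7810, 7146 and 7173 normalized counts in YAP siRNA replicates 1, 2 and 3, against 9605, 8470 and 9009 in control siRNA replicates 1, 2 and 3. Its groups did not overlap, and it was lower in 3 of 3 pairs. Fads2 fell by 0.29 on the log2 scale (SE 0.081, 95% interval −0.48 to −0.11), with adjusted p = 0.0414 in blocked and 0.387 in unblocked limma. With the block it did not pass without replicate 2 (adjusted p = 0.280), without replicate 3 (0.225), with libraries rescaled to one total (0.0562), with quantile normalization (0.0531) or without a trend (0.158). The lowest adjusted p of the 9 fits was 0.00195, without replicate 1 of both groups. Fads1 had 15213, 15685 and 15646 in YAP siRNA replicates 1, 2 and 3, against 15147, 12836 and 12145 in control siRNA replicates 1, 2 and 3. Its groups did not overlap either, with YAP siRNA higher, but the pair of replicate 1 differed by 0.01 and the test gave no call (log2 fold change 0.22, limma adjusted p = 0.140 with the block). The neighbours thus had log2 fold changes of opposite sign, and the difference between them was not tested.

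Levels were also taken per kilobase of the longest annotated coding transcript, which allows for length but not for shared sequence. On this scale Scd2 had the highest mean level, 26411 normalized counts per kilobase after YAP siRNA and 19972 after control siRNA. The next were Scd1 with 5126 after YAP siRNA and 4687 after control siRNA, and Sqle with 5091 after YAP siRNA and 5047 after control siRNA. Srebf2 stood at 3917 per kilobase after YAP siRNA and 3529 after control siRNA, above Srebf1 at 1781 after YAP siRNA and 2128 after control siRNA. The lowest tested was Idi1, at 27.4 per kilobase after YAP siRNA and 28.1 after control siRNA, and the next was Acaca, at 126 after YAP siRNA and 109 after control siRNA; both share sequence with pseudogenes.

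Replicate 1 carried higher values of a subset of these genes in both groups. Idi1, Fdps, Fdft1, Insig1, Acaca and Elovl6 were over 2-fold above the mean of replicates 2 and 3 in YAP siRNA and in control siRNA alike, 22.2% of the 27 genes against 6.52% of all genes, and 0 were over 2-fold below. Fdft1 had 3200, 691.3 and 895.2 normalized counts in YAP siRNA replicates 1, 2 and 3, against 3574, 536.3 and 777.3 in control siRNA replicates 1, 2 and 3. Fdps had 923.2, 260.4 and 315.0 in YAP siRNA libraries and 1055, 193.3 and 305.5 in control siRNA libraries. In both genes replicate 1 of either group exceeded every library of replicates 2 and 3.

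The 5 genes sharing at least 10% of their 31-base words with pseudogenes or other coding genes were among those highest in replicate 1. Fdps shared 79.0%, Acaca 56.8%, Acat2 50.5%, Idi1 22.0% and Fdft1 20.3%. Their replicate 1 was 1.95 to 4.03 times the mean of replicates 2 and 3 in YAP siRNA and 2.31 to 5.44 times in control siRNA, against medians of 1.10 in YAP siRNA and 1.16 in control siRNA in the other 22 genes. Over all genes, the 865 sharing at least 10% with pseudogenes had median ratios of 2.39 in YAP siRNA and 2.45 in control siRNA, against 0.923 in YAP siRNA and 0.903 in control siRNA in the 7436 sharing none. These classes of all genes count pseudogenes only. Acat2 shared 0% with pseudogenes, and its 50.5% was with other coding genes. How reads matching several places were counted is not given in the sources used here, and the part of shared sequence in the values of replicate 1 was not tested.

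**Figure D3:**
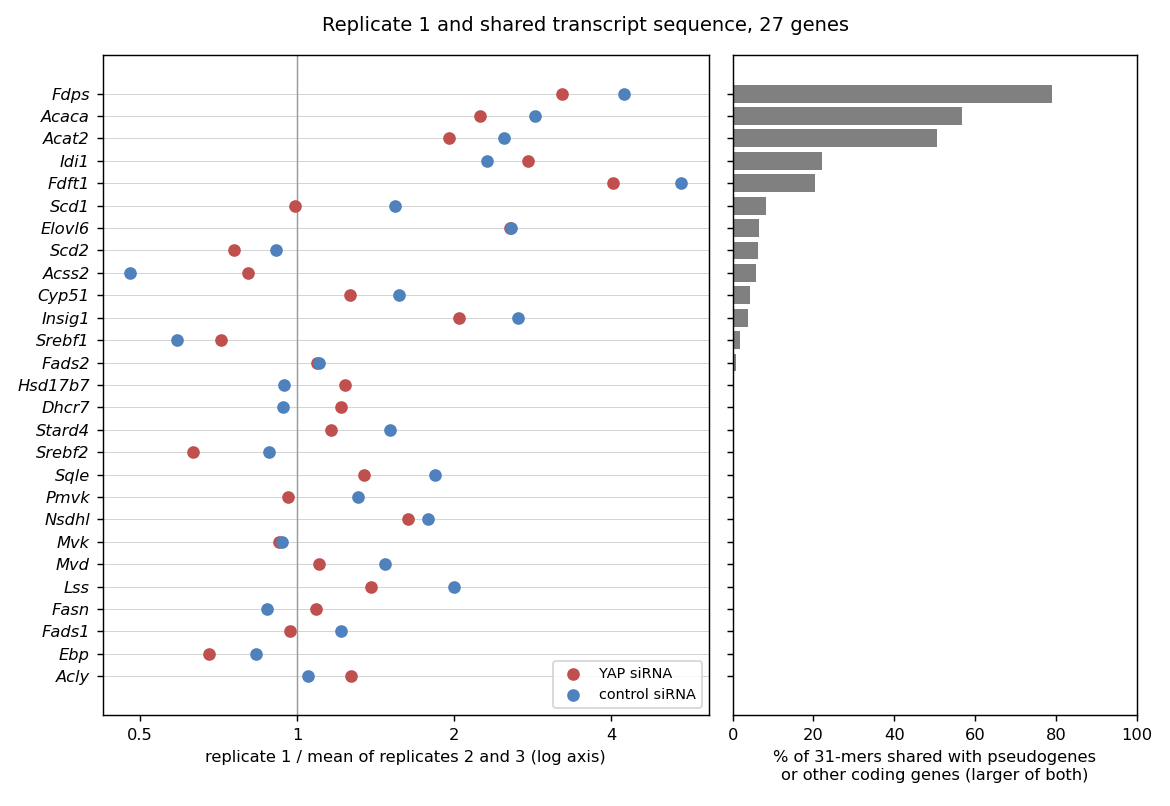
Left, replicate 1 over the mean of replicates 2 and 3 on a log axis for the 27 tested genes, YAP siRNA in red and control siRNA in blue. Right, the percent of each gene's 31-base words found in pseudogenes or in other coding genes, whichever is larger; the 5 genes with at least 10% head the list, and Elovl6 and Insig1 are over 2-fold high in replicate 1 with 6.40% and 3.90%.

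Without replicate 1 of both groups, a setting chosen after seeing the data for the fit without the block, more of these genes passed. Unblocked limma then called 4 sterol genes higher (Acat2, Pmvk, Srebf2 and Stard4) and 1 lower (Hsd17b7), where 14.9% of all genes were called higher and 16.4% lower. It called 4 fatty acid genes higher (Acaca, Fads1, Scd1 and Scd2) and 2 lower (Srebf1 and Fads2). With the block, the counts were 7 higher and 2 lower in the sterol branch and 4 higher and 3 lower in the fatty acid branch, where 21.9% of all genes were called higher and 21.8% lower. In replicates 2 and 3 alone, the groups did not overlap for 8 sterol genes higher and 2 lower, and for 4 fatty acid genes higher and 6 lower, where this was so for 33% of all genes higher and 33.3% lower. With the block but without replicate 2, Hsd17b7 was the single call of the 27, lower as were 1.38% of all genes, and without replicate 3 it was again the single call, where 4.6% of all genes were called lower.

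Other genes of sterol and isoprenoid synthesis gave 1 call. All counts of the further lists are from blocked limma, which called 8.32% of all genes higher and 8.96% lower, 17.3% in all; with so few genes per list, none is read as standing apart from that share. Of 8 further sterol synthesis genes tested, 0 rose and 1 fell with the block, where 8.96% of all genes fell: Tm7sf2, a sterol reductase that acts after Cyp51, had 165.9, 143.3 and 167.3 normalized counts in YAP siRNA libraries and 227.6, 226.1 and 297.2 in control siRNA libraries (log2 fold change −0.64, limma adjusted p = 0.0443). Their median log2 fold change was 0.03. Of 14 genes that use farnesyl or geranylgeranyl diphosphate, 0 rose and 0 fell; the median was −0.13, and the gene with the smallest p was Icmt, which methylates prenylated proteins (−0.26, limma adjusted p = 0.122). Tm7sf2 did not pass without replicate 2 or replicate 3 (adjusted p = 0.268 and 0.265).

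Of 10 genes that process SREBPs or turn them over, 0 rose and 2 fell with the block, where 8.32% of all genes rose and 8.96% fell. Mbtps1, the site-1 protease that makes the first cut in an SREBP, had 4108, 4367 and 3862 normalized counts in YAP siRNA replicates 1, 2 and 3, against 5994, 6559 and 6031 in control siRNA replicates 1, 2 and 3. The groups lay well apart, and Mbtps1 fell by 0.59 on the log2 scale (limma adjusted p = 0.0042 with the block, 0.170 without). Fbxw7, a ubiquitin ligase subunit that marks nuclear SREBPs for breakdown, fell by 0.43 (adjusted p = 0.0256 with the block in limma), with 1825, 1793 and 1733 in YAP siRNA libraries and 2294, 2748 and 2193 in control siRNA libraries. With the block, neither passed without replicate 2 (adjusted p = 0.0630 for Mbtps1 and 0.309 for Fbxw7). Of 7 other SREBP targets tested 0 passed; Rdh11, a retinol dehydrogenase, had the smallest p (0.64, limma adjusted p = 0.0602).

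In sterol traffic, Abca1 had the largest fall. Of 15 genes, 1 rose and 2 fell with the block, where 8.32% of all genes rose and 8.96% fell. Abca1, the membrane pump that exports cholesterol, had 769.3, 4042 and 4681 normalized counts in YAP siRNA replicates 1, 2 and 3, against 1188, 10334 and 10897 in control siRNA replicates 1, 2 and 3. Replicate 1 was low in both groups, so the groups overlapped, but each pair was lower after YAP siRNA, and Abca1 fell by 1.07 on the log2 scale (limma adjusted p = 0.0029 with the block, 0.782 without). With single libraries left out and no block, the log2 fold change of Abca1 was −0.23 without YAP siRNA replicate 1, and −2.12, −0.56 and −0.52 without control siRNA replicates 1, 2 and 3. Mylip, a ubiquitin ligase that degrades lipoprotein receptors, rose by 0.71 (limma adjusted p = 0.0139), and Stard3, a sterol carrier of late endosomes, fell by 0.41 (0.0293). Abca1 and Mylip are both known targets of the sterol-sensing LXR receptors, and they differed in opposite directions. This describes these called genes only, and the targets of these receptors were not examined as a set. Mylip and Stard3 did not pass without replicate 2 (adjusted p = 0.118 and 0.226) or replicate 3 (0.0844 and 0.180). Without the block, the log2 fold change of Mylip was 1.07 without YAP siRNA replicate 1 and 0.42 without control siRNA replicate 1.

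Of the other fatty acid genes, Elovl5 had the largest rise. Of 27 further genes of fatty acid synthesis and activation, 4 rose and 0 fell with the block, where 8.32% of all genes rose and 8.96% fell, and the median log2 fold change was −0.04. Elovl5, the elongase that works on the products of Fads2, had 6357, 6482 and 6870 normalized counts in YAP siRNA replicates 1, 2 and 3, against 3220, 3613 and 3333 in control siRNA replicates 1, 2 and 3. Elovl5 rose by 0.96 (SE 0.088, limma adjusted p = 0.0013 with the block, 0.123 without), close to equal in the 3 pairs, and passed in 8 of 9 fits with the block. Acsl1 and Acsl4, which activate fatty acids with coenzyme A, rose by 0.66 and 0.62, and Me1, an enzyme that supplies NADPH, by 0.65 (limma adjusted p = 0.0096, 0.0314 and 0.0300). Without replicate 2 none of these 3 passed with the block (adjusted p = 0.0984, 0.205 and 0.240), nor did Acsl4 without replicate 3 (0.0507). Without the block, the log2 fold change of Me1 was 0.43 without YAP siRNA replicate 1, and 1.13 and 0.33 without control siRNA replicates 1 and 2, and the log2 fold change of Acsl1 was 0.44 without YAP siRNA replicate 1.

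Storage and oxidation genes both held calls, where 8.32% of all genes rose and 8.96% fell. Of 14 glycerolipid genes, 0 rose and 3 fell with the block: Lpin2, a phosphatidate phosphatase, by 0.62, Dgat2, which makes triglyceride, by 0.89, and Plin2, a lipid droplet coat protein, by 0.36 on the log2 scale (limma adjusted p = 0.0063, 0.0102 and 0.0414). Dgat2 had 281.3, 346.1 and 349.6 normalized counts in YAP siRNA libraries and 403.6, 685.2 and 788.4 in control siRNA libraries. Of 19 fatty acid oxidation genes, 2 rose and 1 fell. Acadl, an acyl-CoA dehydrogenase, rose by 0.58 and Etfa, an electron carrier subunit, by 0.41, while Ppard, a nuclear receptor that activates oxidation genes, fell by 0.66 (limma adjusted p = 0.0114, 0.0481 and 0.0088). The medians of these lists were −0.01 and 0.15. Without replicate 2 none of these 6 passed with the block, with adjusted p from 0.0723 to 0.315, and without replicate 3 Etfa did not (0.165). Without the block, the log2 fold change of Etfa was −0.11 and 0.74 without YAP siRNA replicates 1 and 2, and 0.95, 0.07 and 0.22 without control siRNA replicates 1, 2 and 3. The log2 fold change of Plin2 was −0.21 without control siRNA replicate 1, and −0.24 without replicate 1 of both groups.

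**Figure D4:**
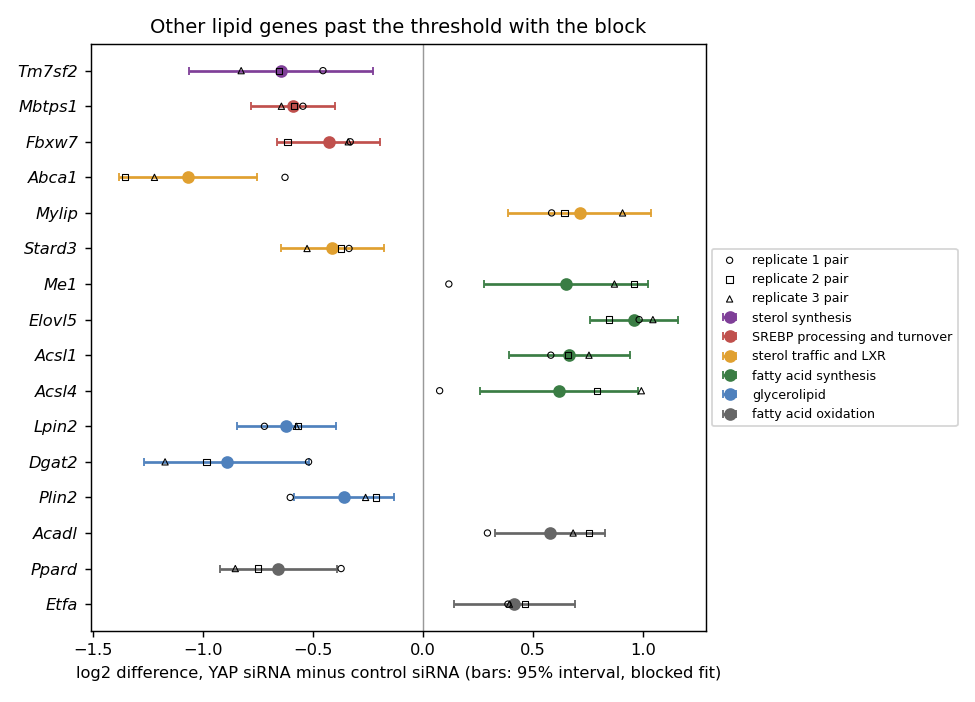
Log2 difference of YAP siRNA minus control siRNA (filled points) with its 95% interval from the blocked fit, and the 3 same-numbered pairs (open symbols), for the 16 genes of the other lipid lists that passed with the block. Elovl5 lies highest at 0.96 and Abca1 lowest at −1.07, and within every gene all 3 pairs lie on the same side of 0.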

How the data were processed

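RNA of SC4 cells was sequenced in 6 libraries, 3 per siRNA group. The libraries were made from fragmented poly(A) RNA with directional adapters, per the labels' protocols. The tools were TopHat2 2.0.9, HTSeq 0.6.1 and DESeq 1.14.0 on build mm9, per the submitters' processing notes. The sources used here name no annotation, strand setting or filter. The deposited values are of a signal unit: the authors scaled each library's gene counts by its size factor. All values above 0 were whole multiples, within 0.01 reads, of what 1 read is worth, so reads were recovered; 0 columns were left unused. Within a group, every pair of libraries differed by more than sampling noise (chi-square per degree of freedom of 6.98 or more).

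Here, log2(value + 1) was tested with limma 3.58.1 in R 4.3.3 (mean-variance trend, two-sided, Benjamini-Hochberg over the 12820 genes whose mean reached 10), without a covariate and with the replicate number as a block. Same-numbered libraries correlated in their deviations from the group means at 0.788, 0.705 and 0.532, so the numbers were taken to pair them, although no label names a shared day or batch. Differently numbered libraries correlated at 0.552 (YAP siRNA 3 with control 2) and 0.516 (YAP siRNA 2 with control 3), so the check sets replicate 1 apart but tells replicates 2 and 3 apart poorly. Recovered reads were also tested with edgeR 4.0.16 and DESeq2 1.42.0. The method was tested on simulated data in which same-numbered libraries shared their means apart from planted changes. Pairing was thus built in, so this simulation cannot show whether the block suits these libraries. Shared 31-base words, lengths and neighbours came from GENCODE M21 by symbol, promoters from RefSeq (GRCm38.p6).

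The members and lists were chosen with earlier results of these data known. Genes given by library were both SREBP genes, members that passed or whose groups did not overlap, and the largest rise and fall per branch; of other lists, up to 3 passing genes each, or the gene with the smallest p. Acsl4, Etfa and other members given by library (Insig1, Mvk, Fasn, Scd1, Fdft1 and Fdps) were added after their values were seen. A gene of the oxidation list and a Schwann cell marker are not reported here.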

Additional observations from a re-analysis of the deposited data

How the results depend on the processing

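Same-numbered libraries were taken as paired, and the replicate block decided most calls. Without it limma called 0 genes of either direction, and so did not call Yap1 either. With the replicate block it called 1067 genes higher and 1149 lower, of which 0 and 1 were in the sterol branch and 1 and 1 in the fatty acid branch. On recovered reads with the block, edgeR called 1190 higher and 1289 lower and DESeq2 1182 and 1308, each with the same branch counts of 0 and 1, and 1 and 1. With the block and libraries rescaled to one total the counts were 1225 higher and 1027 lower, and with quantile normalization 1167 and 1182, each with 1 sterol gene lower and 1 fatty acid gene higher. Without a trend the blocked counts were 12 and 18, with 0 of the 27 genes. Of the 19 genes described as risen or fallen, 19 lost their call without a trend, 16 without replicate 2, 7 without replicate 3, 3 with one total (Fads2, Plin2 and Tm7sf2) and 2 with quantiles (Fads2 and Plin2); 0 did in blocked edgeR or DESeq2 or without replicate 1. At an adjusted p under 0.1 they were 1722 and 1784, with 1 sterol gene lower and 1 fatty acid gene in each direction. Blocked fits without replicate 1 of both groups called 2804 higher and 2792 lower (sterol 7 and 2, fatty acid 4 and 3), those without replicate 2 called 123 higher and 177 lower, and those without replicate 3 called 538 and 590 (each with 1 sterol gene lower). With a pair left out, the block leaves 1 residual degree of freedom per gene. Without the block, DESeq2 called 325 higher and 397 lower, with 1 sterol gene lower. Leaving out replicate 1 of both groups without the block, chosen after seeing the data, gave 1912 higher and 2106 lower (sterol 4 and 1, fatty acid 4 and 2). Leaving out 1 library at a time without the block gave 0 to 192 genes higher and 0 to 305 lower, with 0 to 1 sterol gene lower. The cause of these changes was not tested.

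Of the 27 genes tested, Hsd17b7, Scd2, Fads1, Fads2, Fasn, Dhcr7, Pmvk, Stard4, Scd1, Srebf1 and Srebf2 kept their direction in every setting run. The log2 fold changes of 16 members and of Etfa changed sign in some setting. Leaving out 1 library in turn, they ran from −0.0072 to 0.7543 for Acat2, −0.0035 to 0.0699 for Mvk, −0.3244 to 0.0393 for Mvd, −0.5579 to 0.3921 for Idi1, −0.4685 to 0.7976 for Fdps, −0.5377 to 0.9588 for Fdft1, −0.1205 to 0.3539 for Sqle, −0.297 to 0.29 for Lss, −0.0326 to 0.3349 for Cyp51, −0.1898 to 0.3231 for Nsdhl, −0.0614 to 0.2641 for Ebp and −0.1471 to 0.67 for Insig1. In the fatty acid branch they ran from −0.1503 to 0.0384 for Acly, −0.4277 to 0.1501 for Acss2, −0.1064 to 0.7864 for Acaca and −0.6091 to 0.2941 for Elovl6, and for Etfa from −0.1127 to 0.9548. On recovered reads without the block, Fdps was at −0.0398 in edgeR and −0.0507 in DESeq2, and Fdft1 at −0.0209 and −0.0303. With the block and without replicate 1, Lss was at 0.1335, the same as without the block. Without replicate 2, Fdps was at −0.0739, Ebp at −0.0197 and Acly at 0.0180, and without replicate 3, Idi1 was at 0.1046, Sqle at −0.0431 and Acss2 at 0.1206. The median log2 fold change of all genes stayed between −0.0166 and 0.0368 over the settings.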
